A study of Mus musculus with 71 samples.

Results

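The genes described here are the 8 Toll-like receptor genes Tlr1, Tlr2, Tlr4, Tlr6, Tlr7, Tlr8, Tlr9 and Tlr13 and the adaptor gene Myd88. They were chosen by gene symbol, with earlier results of these data known, and all 9 were found among the 10508 genes of the normalized table of whole blood RNA. Toll-like receptors are membrane proteins of innate immune cells that bind molecules shared by many microbes: receptors at the cell surface bind bacterial lipids and lipoproteins, and receptors in endosomes bind nucleic acids. Ligand binding brings receptors together and recruits Myd88, which assembles IRAK kinases into a complex called the Myddosome, and NF-kB and interferon regulatory factors are activated downstream. In blood, neutrophils and monocytes are known for many of these receptors, and B cells and plasmacytoid dendritic cells for the nucleic acid sensors.

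Terminal whole blood was sequenced from 71 female Balb/c AnNRj mice, which were 6 weeks old at the start. Control mice (n = 11) received PBS, and all the others received intradermal hypochlorous acid (HOCl), an oxidant that produces a systemic sclerosis-like disease, for 6 weeks. HOCl mice (n = 12) had no further agent, HOCl + D11 and HOCl + E07 mice (n = 12 each) received 20 mg/kg of an antibody to galectin-3, a galactoside-binding lectin, by subcutaneous injection, and HOCl + D06 and HOCl + BPR21 mice (n = 12 each) received agents that the sources used here do not describe. The treated groups are called D11, E07, D06 and BPR21 below. Groups were kept in separate cages, so that cage and treatment cannot be told apart. The labels of the control mice carry the same genotype entry, HOCL, as the other groups, and the control group was taken from the sample titles.

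Libraries held 11932855 to 15948972 counted reads. HOCl mouse 8 had counts but no normalized values, so the normalized values cover 70 mice, 11 of them in the HOCl group. Genes of red cell precursors took a larger share of the counts in HOCl (mean 10.2%) than in control mice (6.18%) or E07 mice (5.72%), and this moved with both comparisons between HOCl mice and these groups. Of 18 erythroid marker genes, 16 were called higher in HOCl than in control mice and 17 lower in E07 than in HOCl mice. Normalized values are the deposited variance-stabilized (vst) values, on a log2-like scale on which a gene without reads sits at 6.06. A gene was called when its false discovery rate (FDR, Benjamini-Hochberg adjusted p from limma over all 10508 genes) was at most 0.05 and its fold change at least 1.3. In every comparison of vst values with HOCl mice the same 11 HOCl mice were used. Fits on the counts (edgeR, DESeq2 and scaling to the library total) also held HOCl mouse 8, so 12 HOCl mice.

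The 9 genes covered a wide range of levels. On the scale of CPM per kilobase of exon (CPM scales counts to the library total), median levels over 71 mice were 22.5 for Tlr1, 16.2 for Myd88, 9.52 for Tlr13, 6.54 for Tlr6, 3.30 for Tlr7, 1.93 for Tlr2, 1.25 for Tlr8, 1.08 for Tlr4 and 0.952 for Tlr9. Tlr1, which pairs with Tlr2, was thus the most abundant per length, and Tlr9 had the lowest level of the 9. The median Tlr1 count was 1061 reads per mouse and the median Tlr9 count was 45, with no Tlr9 read in E07 mouse 12 and in D06 mouse 10. Of the other mouse receptor genes, only Tlr12 was in the normalized table. Tlr3, Tlr5 and Tlr11 had median counts of 3, 20 and 8 reads.

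**Figure D1:**
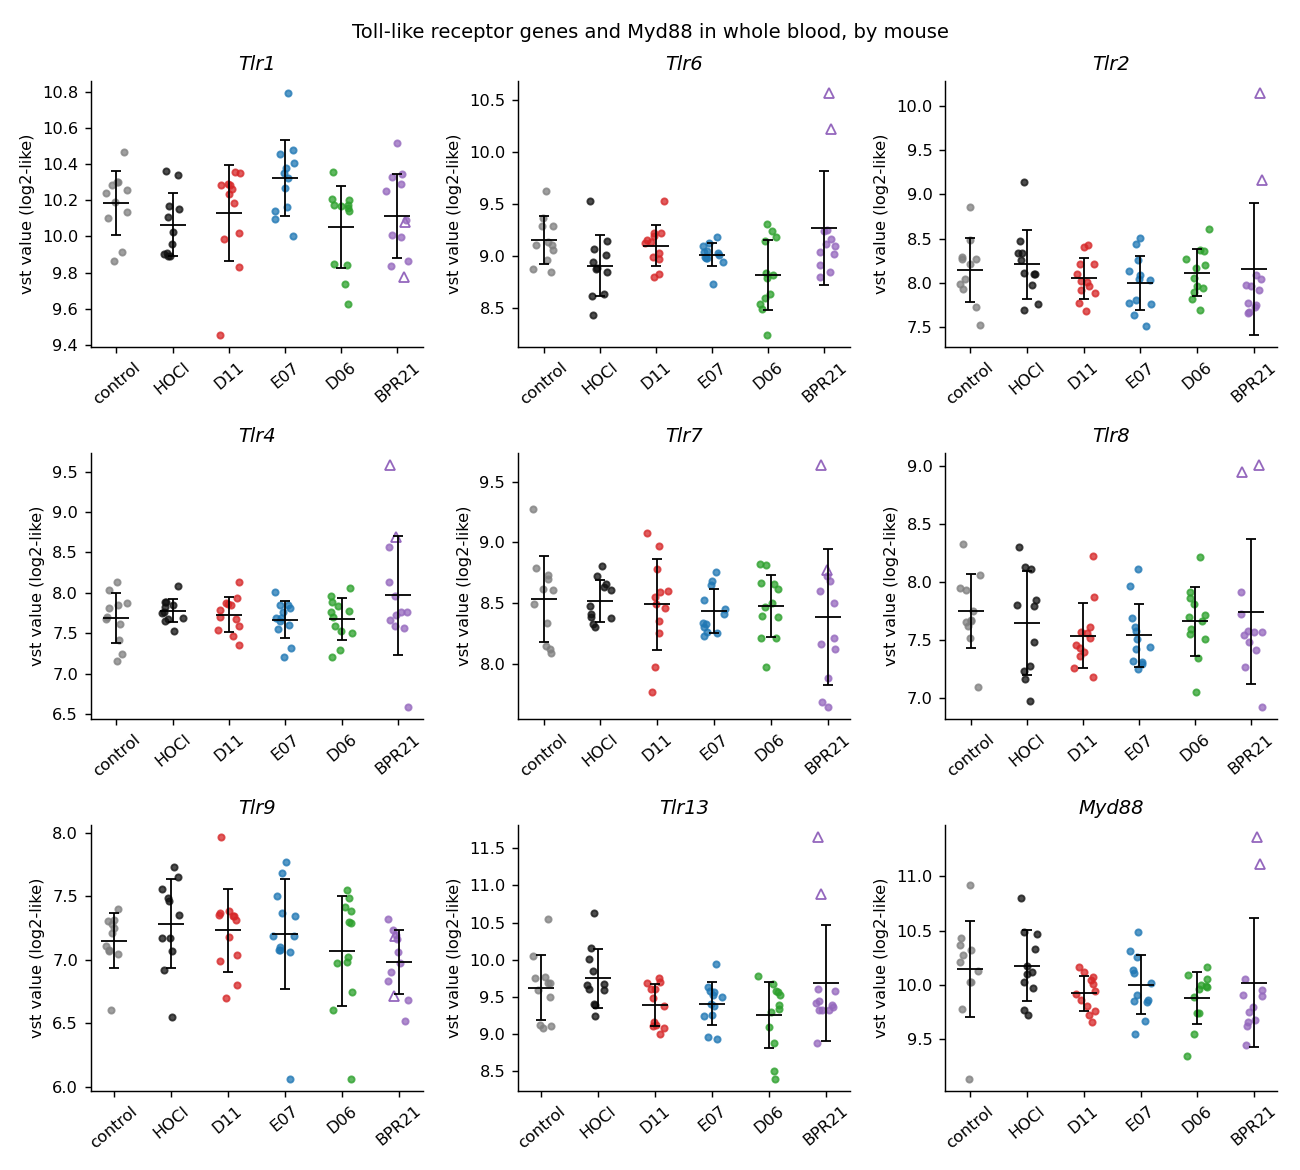
Normalized (vst) level of each of the 9 genes in each mouse, by group, with the group mean and SD as bars; triangles mark BPR21 mice 7 and 11. All groups overlap for every gene, and the 2 triangles are the highest points in the panels of Tlr2, Tlr4, Tlr6, Tlr8, Tlr13 and Myd88.

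The receptors of the cell surface were examined first. Tlr2 binds bacterial lipoproteins as a heterodimer with Tlr1 or Tlr6. The Tlr2 gene (chromosome 3, 83743576 to 83749074, minus strand, GRCm39) had a lowest, median and highest vst value of 7.52, 8.21 and 8.85 in control mice and of 7.70, 8.11 and 9.14 in HOCl mice. The highest BPR21 value was 10.14 against a BPR21 median of 7.94, and the other groups lay between 7.52 and 8.61. Group means ran from 8.21 ± 0.39 (SD, n = 11) in HOCl mice down to 8.00 ± 0.31 (SD, n = 12) in E07 mice. The control and treated mice overlapped throughout, and the gap between the HOCl and E07 means was within that spread (FDR = 0.324, limma).

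Tlr1, the partner of Tlr2 for triacylated lipoproteins, lies at chromosome 5, 65082022 to 65090941 (minus strand), close to its paralog Tlr6. In E07 mice its lowest, median and highest values were 10.00, 10.34 and 10.79, and in HOCl mice they were 9.89, 10.02 and 10.36. Control mice spanned 9.86 to 10.47 with a median of 10.24. The E07 and HOCl ranges overlapped, but 11 of 12 E07 mice were above the HOCl median. The mean of E07 mice was higher by 0.26 on the log2 scale (fold 1.20, SE 0.083, 95% interval 0.086 to 0.428, FDR = 0.0366, limma), below the fold change asked of a call. Tlr1 was the only one of the 9 with an FDR of at most 0.05 in this comparison, a threshold that 15% of all genes passed. Leaving out each mouse in turn gave 0.21 to 0.29 with an FDR between 0.020 and 0.066. Mean Tlr1 levels ran from E07 through control, D11, BPR21 and HOCl down to D06. No neighbours in that order were called (lowest FDR = 0.763, limma), though such neighbours have the smallest gaps by construction. The highest and lowest group, E07 and D06, differed by 0.27 (SE 0.092, FDR = 0.0449), again under 1.3-fold, with 9 of 12 E07 mice above the D06 median. This pair was picked as the extremes of the 6 groups, which its FDR does not account for. Across the 6 groups together Tlr1 did not pass (limma F test, FDR = 0.153).

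Tlr6 pairs with Tlr2 for diacylated lipoproteins and lies at chromosome 5, 65108704 to 65203497 (minus strand). Its lowest, median and highest values were 8.85, 9.11 and 9.63 in control mice, 8.43, 8.89 and 9.53 in HOCl mice, and 8.80, 9.11 and 10.56 in BPR21 mice. Most HOCl mice were below the control median, with overlapping ranges. The HOCl mean was 0.24 below the control mean (SE 0.110, 95% interval -0.466 to -0.015, FDR = 0.238, limma), which did not pass the threshold. BPR21 mice averaged 0.36 more than HOCl mice (FDR = 0.343), with 10 of 12 above the HOCl median, and D06 mice averaged 0.33 less than control mice (FDR = 0.0735). Across the 6 groups together, Tlr6 came closest of the 9 to the threshold (limma F test, FDR = 0.0535). Tlr1 and Tlr6 share an identical stretch of 229 bases and 340 runs of 75 bases, and how reads matching both were counted is not given in the sources used here, so the Tlr1 and Tlr6 counts may not be fully separate.

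Tlr4 binds lipopolysaccharide together with its partner Ly96 and lies at chromosome 4, 66745783 to 66849936 (plus strand), where 235 exon bases overlap an RNA on the opposite strand. Its values spanned 7.16 to 8.14 in control mice, 7.53 to 8.08 in HOCl mice and 6.59 to 9.58 in BPR21 mice. Medians stood between 7.69 and 7.77 in all 6 groups, and the BPR21 range enclosed every other group. No difference of Tlr4 between groups passed the threshold (highest against lowest mean 0.30, FDR = 0.358).

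The endosomal receptors were compared next. Tlr7 and Tlr8, which bind single-stranded RNA, are neighbours on chromosome X (166086758 to 166113605 and 166024184 to 166047325, both minus strand). Tlr7 medians ran from 8.36 in BPR21 mice to 8.61 in control mice, and single mice spanned 7.65 to 9.64. Tlr8 medians ran from 7.47 in E07 mice to 7.79 in HOCl mice, and single mice spanned 6.92 to 9.01. The groups overlapped widely for both genes, and no mean differed by more than 0.15 for Tlr7 or 0.21 for Tlr8. In mice the response of Tlr8 to RNA is known to be weak in comparison with Tlr7.

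Tlr13, a receptor for bacterial ribosomal RNA that humans lack, lies on chromosome X (105186810 to 105204533, plus strand) and gave the widest gap between group means. Its lowest, median and highest values were 9.24, 9.66 and 10.63 in HOCl mice, 8.41, 9.36 and 9.78 in D06 mice and 8.94, 9.45 and 9.94 in E07 mice. Only 2 of 12 D06 mice and 1 of 12 E07 mice were above the HOCl median, and the lowest HOCl value was inside the range of each treated group. D06 mice averaged 0.49 less than HOCl mice (fold 0.711, SE 0.163, 95% interval -0.826 to -0.159, p = 0.00531, FDR = 0.179, limma). E07 mice averaged 0.34 less (SE 0.133, 95% interval -0.608 to -0.064, FDR = 0.0885) and D11 mice 0.36 less (FDR = 0.244). None of these 3 differences passed in limma, and the sign of the E07 difference turned (0.07) when counts were scaled to the library total, a scale described below. In DESeq2 on the counts, both the D06 (-0.61, FDR = 0.0417) and the E07 difference (-0.45, FDR = 0.0304) passed, while edgeR gave an FDR of 0.121 and 0.0576. The limma call in E07 mice turned on single mice: without HOCl mouse 11 the difference was -0.39 (FDR = 0.0463) and without E07 mouse 6 it was -0.38 (FDR = 0.0417). Control mice, with a mean of 9.63 ± 0.44 (SD, n = 11), were near HOCl mice, with 9.75 ± 0.40 (SD, n = 11).

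Beside the lower Tlr13 values, the mean vst value of 10 monocyte marker genes was 9.82 in HOCl mice (9.39 to 10.11) and 9.82 in control mice (9.35 to 10.34), against 9.51 in D06 (9.22 to 9.83), 9.47 in E07 (9.10 to 10.01), 9.49 in D11 (9.16 to 9.75) and 9.25 in BPR21 mice (8.92 to 9.61). Of these 10 genes, 2 were called lower in E07, 0 in D11, 1 in D06 and 3 in BPR21 mice than in HOCl mice. The mean of 12 neutrophil marker genes was 10.87 in HOCl mice (10.36 to 12.27), against 10.67 in D06 (10.00 to 11.71), 10.41 in E07 (9.93 to 10.80) and 10.44 in D11 mice (10.23 to 10.66), with a median difference from HOCl mice of -0.30, -0.46 and -0.43, and 0, 3 and 0 of the 12 called lower. It was 10.47 in BPR21 mice (9.77 to 11.97) and 10.36 in control mice (9.85 to 11.30), the lowest of the groups. All 12 were higher in HOCl than in control mice, 3 of them called, although Tlr13 was near in these groups. The part of monocytes or neutrophils in the Tlr13 difference was not tested. In whole blood, fewer cells of a type and less RNA per cell cannot be told apart.

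Tlr9 binds DNA with unmethylated CpG and lies at chromosome 9, 106099797 to 106104082 (plus strand). Its lowest, median and highest values were 6.55, 7.35 and 7.73 in HOCl mice, 6.61, 7.21 and 7.40 in control mice and 6.52, 7.01 and 7.32 in BPR21 mice. No BPR21 mouse reached the HOCl median, though the ranges overlapped. The BPR21 mean was 0.30 below the HOCl mean (p = 0.0212, FDR = 0.264, limma) and did not pass. At such low counts the vst scale narrows differences: edgeR on the counts gave -1.17 (FDR = 0.150) for the same comparison and 0.68 (FDR = 0.348) for HOCl against control mice, in which vst gave 0.13.

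The promoters of Tlr13, Tlr8 and Tlr9 are shown here because the first pair moved with neutrophil markers between mice and Tlr9 did not, as described further on, and Tlr2 is shown as the receptor closest to those markers. The sequences are RefSeq's, up to 250 bases before the annotated start with the exons of the gene left out, and were placed on GRCm39 by an exact match. Capitals mark GAGGAA, the core letters of binding sites of PU.1, or its reverse complement TTCCTC. PU.1 is the product of Spi1, and the motif was chosen after Spi1 was seen to be the gene most like Myd88.
Tlr13 promoter, chrX:105186631-105186809, plus strand: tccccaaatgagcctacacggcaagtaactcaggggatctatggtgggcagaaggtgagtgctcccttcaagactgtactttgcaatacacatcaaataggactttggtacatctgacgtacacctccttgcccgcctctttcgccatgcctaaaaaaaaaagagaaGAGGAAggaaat
Tlr8 promoter, chrX:166047326-166047575, minus strand: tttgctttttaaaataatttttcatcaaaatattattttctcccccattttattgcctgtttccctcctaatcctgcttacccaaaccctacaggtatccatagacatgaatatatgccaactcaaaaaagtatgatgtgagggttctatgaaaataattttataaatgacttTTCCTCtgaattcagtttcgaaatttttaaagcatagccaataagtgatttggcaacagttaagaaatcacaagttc
Tlr9 promoter, chr9:106099547-106099796, plus strand: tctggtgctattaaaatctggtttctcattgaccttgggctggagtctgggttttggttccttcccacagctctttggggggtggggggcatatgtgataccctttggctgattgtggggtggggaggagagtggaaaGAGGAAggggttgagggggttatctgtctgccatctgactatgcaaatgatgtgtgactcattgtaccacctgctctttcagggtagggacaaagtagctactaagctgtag
Tlr2 promoter, chr3:83749075-83749165, minus strand: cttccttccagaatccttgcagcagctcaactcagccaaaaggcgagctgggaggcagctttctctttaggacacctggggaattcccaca

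Of the 9 genes, 7 had a RefSeq promoter entry, and these 7 had 9 promoters. GAGGAA was held on either strand in the 250 bases before the start by 4 of the 9 promoters (of Tlr1, Tlr8, Tlr9 and Tlr13). The Tlr1 match was not wholly within the 210 bases before the exons of that gene. The motif was held by 23.3% of all 32851 RefSeq promoters over the same length. The Tlr9 promoter held the motif, and the Tlr2 stretch, which has 91 bases, held none. Any relation between the motif and the levels of these genes was not tested. A match is a stretch of letters and was not tested as a binding site.

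Myd88, the adaptor used by all 8 receptors described, lies at chromosome 9, 119165000 to 119170486 (minus strand), and 628 of its exon bases (16.2%) overlap Acaa1a on the opposite strand. Its lowest, median and highest values were 9.14, 10.21 and 10.92 in control mice, 9.72, 10.12 and 10.80 in HOCl mice, 9.65, 9.93 and 10.16 in D11 mice and 9.34, 9.97 and 10.16 in D06 mice. The D11 and D06 mice lay in the lower part of the HOCl range or under it, with 1 of 12 above the HOCl median in each group. The D06 mean was 0.30 (FDR = 0.265) and the D11 mean 0.26 (FDR = 0.275, limma) below the HOCl mean, and neither difference passed. The monocyte and neutrophil lists given beside Tlr13 had lower means in these groups too, and their part was not tested. Control and HOCl mice differed by 0.03.

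Read as a set, the 9 genes gave no call against HOCl mice or between HOCl and control mice. Between HOCl and control mice 0 of 9 were called by limma, where 4.96% of all genes were, and the members' median difference was 0.03 beside -0.016 over all genes. For 6 of the 9 the 95% interval of that vst difference stayed within 1.3-fold in either direction. Tlr9 was among these 6. At its low counts the vst scale narrows differences, and edgeR gave a larger difference. Only Tlr6 had an unadjusted p under 0.05. On the counts, edgeR and DESeq2 also called 0 of 9 (3.75% and 5.27% of all genes).

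Between E07 and HOCl mice limma called 0 of 9 (7.89% of all genes), with a median difference of -0.10 beside 0.022 over all genes. Tlr1 and Tlr13 had an unadjusted p under 0.05. The intervals of 3 of 9 stayed within 1.3-fold, again on the vst scale, which narrows differences at low counts. On the counts, edgeR called 0 of 9 (10.1% of all genes) and DESeq2 called 1, which was Tlr13 (11.2% of all genes). In E07 mice the mean of the B cell markers was 10.82 (10.50 to 11.12) against 10.39 (9.71 to 10.72) in HOCl mice, with 7 of 10 genes called higher, and the part of these markers in the Tlr1 difference was not tested. With the erythroid share of counts as a covariate, limma called 0 of 10508 genes in this comparison (673 at an unadjusted p under 0.05) and Tlr1 did not pass. That share itself differed between E07 and HOCl mice, so this fit cannot separate it from the treatment.

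The remaining treatments gave the same count. Between D11 and HOCl mice 0 of 9 were called (0.0571% of all genes), with Tlr13 and Myd88 at an unadjusted p under 0.05. Between D06 and HOCl mice 0 of 9 were called (0.133%), with Tlr13 and Myd88 again at an unadjusted p under 0.05. Between BPR21 and HOCl mice 0 of 9 were called (0.638%), with Tlr6 and Tlr9 at an unadjusted p under 0.05. In these 3 comparisons edgeR called 0 of 9 (0.27%, 0.402% and 0.62% of all genes). DESeq2 called 0 of 9 in D11 (1.33%) and BPR21 mice (2.16%) and 1, Tlr13, in D06 mice (1.62%).

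Among the other 10 pairs of groups, 0 of 9 were called in each. The background share was 0.0761% for D11, 0.00952% for E07, 7.88% for D06 and 0.504% for BPR21 against control mice. It was 4.57%, 9.76% and 7.26% for E07 against D11, D06 and BPR21, and 0%, 0% and 0.0571% for D11 against D06, D11 against BPR21 and D06 against BPR21. Over all 135 tests of the 9 genes, 16 had an unadjusted p under 0.05 and 2 an FDR of at most 0.05, both for Tlr1. With the groups ordered by mean, none of 45 neighbouring pairs was called, and the lowest FDR among them was 0.486, for Tlr6. Ordering by the same means makes these the smallest gaps, so the absence of calls among them carries little information. In the F test over 6 groups 18.3% of all genes and none of the 9 had an FDR of at most 0.05, with 0.153 for Tlr1, 0.196 for Tlr13 and 0.450 to 0.931 for the others apart from Tlr6.

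**Figure D2:**
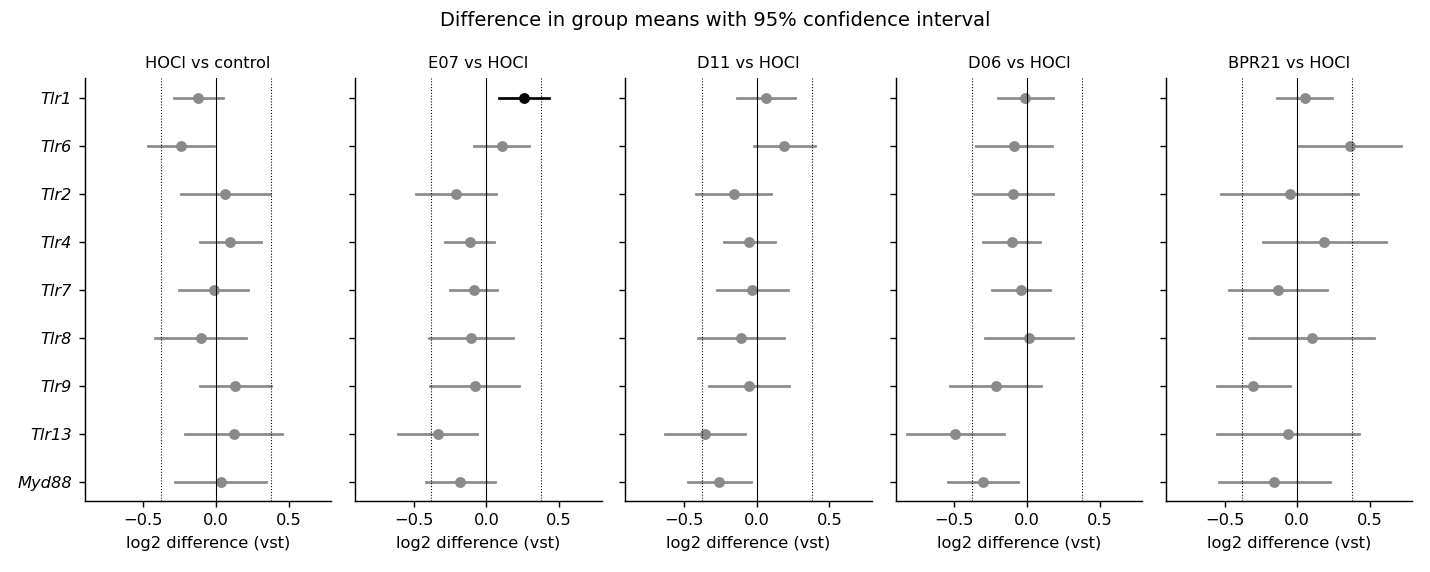
Difference in mean vst value (log2 scale) of each of the 9 genes in the 5 comparisons named in the panels, with 95% intervals from limma; dotted lines mark 1.3-fold and black marks an FDR of at most 0.05. Only Tlr1 in E07 against HOCl mice is black, at 0.26, and no gene reached 1.3-fold with that FDR.

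When counts were divided by the library total instead of the DESeq2 size factor, as log2(CPM + 1), the median of all genes shifted by -0.46 between HOCl and control mice and by 0.49 between E07 and HOCl mice. On that scale limma called 4 of 9 lower in HOCl than in control mice (49% of all genes were called lower), namely Tlr1 at -0.61, Tlr6 at -0.76, Tlr7 at -0.44 and Tlr8 at -0.66. Relative to the shift of all genes these were -0.15, -0.29, 0.02 and -0.20. In E07 against HOCl mice Tlr1 (0.78) and Tlr6 (0.61) were called higher (61.6% of all genes), or 0.30 and 0.12 relative to the shift, while Tlr13 was at 0.07 on that scale itself, above zero like all 9 genes, and at -0.41 relative to the shift. On both scales Tlr1 was thus above and Tlr13 below the median of all genes in E07 mice. Calls over all genes went from 503 higher and 18 lower to 317 higher and 5141 lower between HOCl and control mice, and from 92 and 737 to 6472 and 310 between E07 and HOCl mice. Over the other 10 pairs the same scale gave 19 calls among the members: 7 lower in D06 than in control mice (64.3% of all genes), and higher in E07 mice 3 against D11 (43%), 7 against D06 (71.3%) and 2 against BPR21 mice (44.4%).

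**Figure D3:**
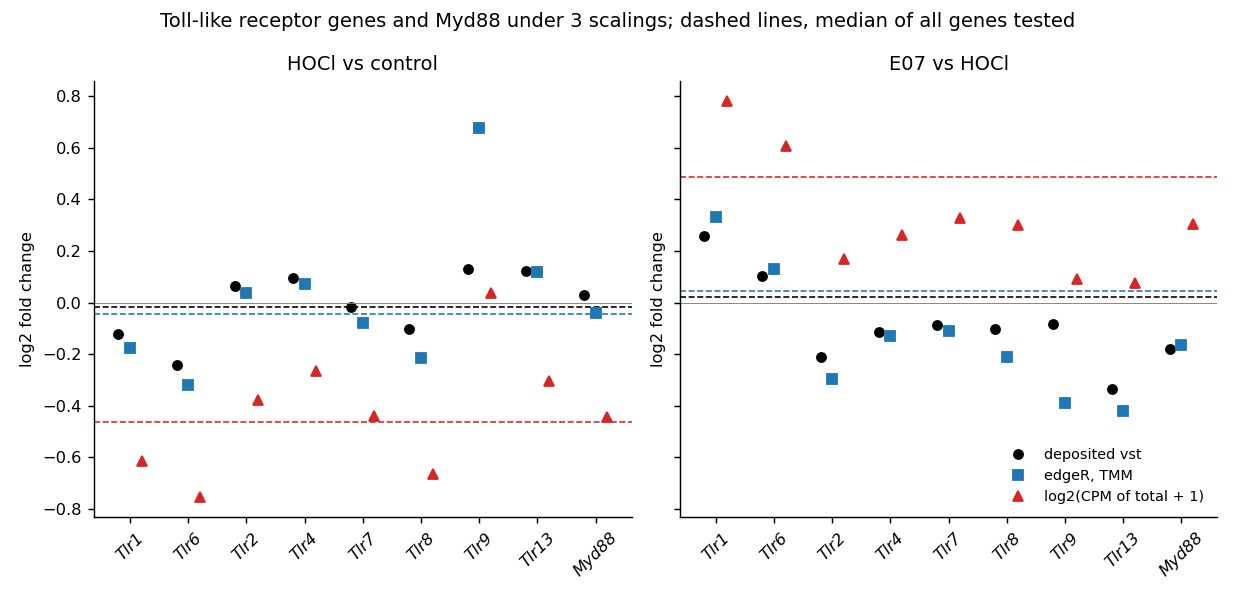
Log2 differences of the 9 genes in HOCl against control (left) and E07 against HOCl mice (right), from limma on vst values (black), edgeR on counts (blue) and limma on log2(CPM + 1) of the library total (red), with the median of all genes as a dashed line in each colour. The red lines are at -0.46 and 0.49, and in the left panel the red points of Tlr1, Tlr6, Tlr7 and Tlr8 lie nearer to that line than to zero.

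The widest spread within a group came from 2 mice. BPR21 mice 7 and 11 held the highest share of counts in 12 neutrophil marker genes of all mice, 2.12% and 1.47%, against a mean of 0.541%. They were also the 2 highest of 70 mice for 6 of the 9 genes. For Tlr13 they reached 10.89 and 11.65, where the other 10 BPR21 mice had a median of 9.38 and a highest value of 9.61. For Myd88 they reached 11.11 and 11.36 beside a highest value of 10.06 in the other 10, for Tlr6 10.22 and 10.56 beside 9.25, and for Tlr2 9.16 and 10.14 beside 8.09. These 4 genes left a gap between the pair and all other BPR21 mice. Tlr1, at 10.08 and 9.78, and Tlr9, at 6.72 and 7.19, were not raised in them.

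Without these mice, a choice made after the data were seen, the BPR21 group was lower than HOCl mice by 0.40 for Myd88 (FDR = 0.0754, limma), by 0.38 for Tlr13 (FDR = 0.151) and by 0.35 for Tlr2 (FDR = 0.170). The members' median moved from -0.053 to -0.296, with 5 instead of 2 of them at an unadjusted p under 0.05, and 0 of 9 were called (1.1% of all genes). Tlr6 went from 0.36 to 0.14.

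The levels of most of the 9 genes followed neutrophil and monocyte markers from mouse to mouse. For each gene and each of 4 marker lists (neutrophil, monocyte, B cell, erythroid), deviations from the group mean were correlated over 70 mice, with p from 100000 permutations within groups and adjusted over the 36 relations. Of these, 16 had an adjusted p of at most 0.05. With the neutrophil list, Tlr2 gave r = 0.79 and rho = 0.63, Tlr13 r = 0.72 and rho = 0.69, and Myd88 r = 0.64 and rho = 0.56. The permutation p of r was 1e-05, the smallest the permutations can give, for Tlr2 and Tlr13 and 3e-05 for Myd88. Tlr4, Tlr6, Tlr7 and Tlr8 gave r from 0.48 to 0.58 and rho from 0.34 to 0.44 (adjusted permutation p of r from 0.00072 to 0.00196). Without the 2 mice farthest from the median of the list, which were BPR21 mice 7 and 11, r was 0.71 for Tlr2, 0.60 for Tlr13, 0.46 for Myd88 and 0.30 to 0.36 for the other 4. Tlr1 (r = -0.08) and Tlr9 (r = -0.14) did not follow this list.

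With the monocyte list, Tlr13 gave r = 0.65 and rho = 0.70 and Myd88 gave r = 0.63 and rho = 0.59, with permutation p = 1e-05 for all 4 values. Without the 2 farthest mice r was 0.61 and 0.58. Tlr2, Tlr7, Tlr8 and Tlr6 had lower r of 0.48, 0.47, 0.39 and 0.32 (adjusted permutation p from 0.00018 to 0.0246), and the rho of Tlr6 (0.23) did not pass. Tlr4 (r = 0.15, rho = 0.02), Tlr1 (r = -0.23) and Tlr9 (r = 0.09) did not pass with the monocyte list. Within single groups of 11 or 12 mice, r between Tlr13 and the monocyte list was positive in all 6, from 0.50 to 0.89, and r between Tlr2 and the neutrophil list in all 6, from 0.36 to 0.90. Myd88 and the neutrophil list ranged from -0.04 in D06 to 0.94 in BPR21 mice. In HOCl mice r with the neutrophil list was 0.75 for Tlr2, and 0.05 to 0.28 for Tlr4, Tlr6, Tlr7, Tlr8, Tlr13 and Myd88. In BPR21 mice, which include mice 7 and 11, it was 0.64 to 0.95 for the same genes.

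Tlr1 had another pattern. It rose with the B cell list between mice (r = 0.37, rho = 0.38, permutation p = 0.0025, adjusted 0.00692, and r = 0.30 without the 2 farthest mice) and had r = -0.33 with the erythroid list (adjusted permutation p = 0.016, rho = -0.25 with an adjusted p of 0.0947). Tlr8 had r = -0.43 with the B cell list (adjusted permutation p = 0.0102), and -0.31 without the 2 farthest mice. Tlr9 had r = 0.22 with that list, which did not pass after adjustment (0.0843). All of these values come from the same libraries.

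**Figure D4:**
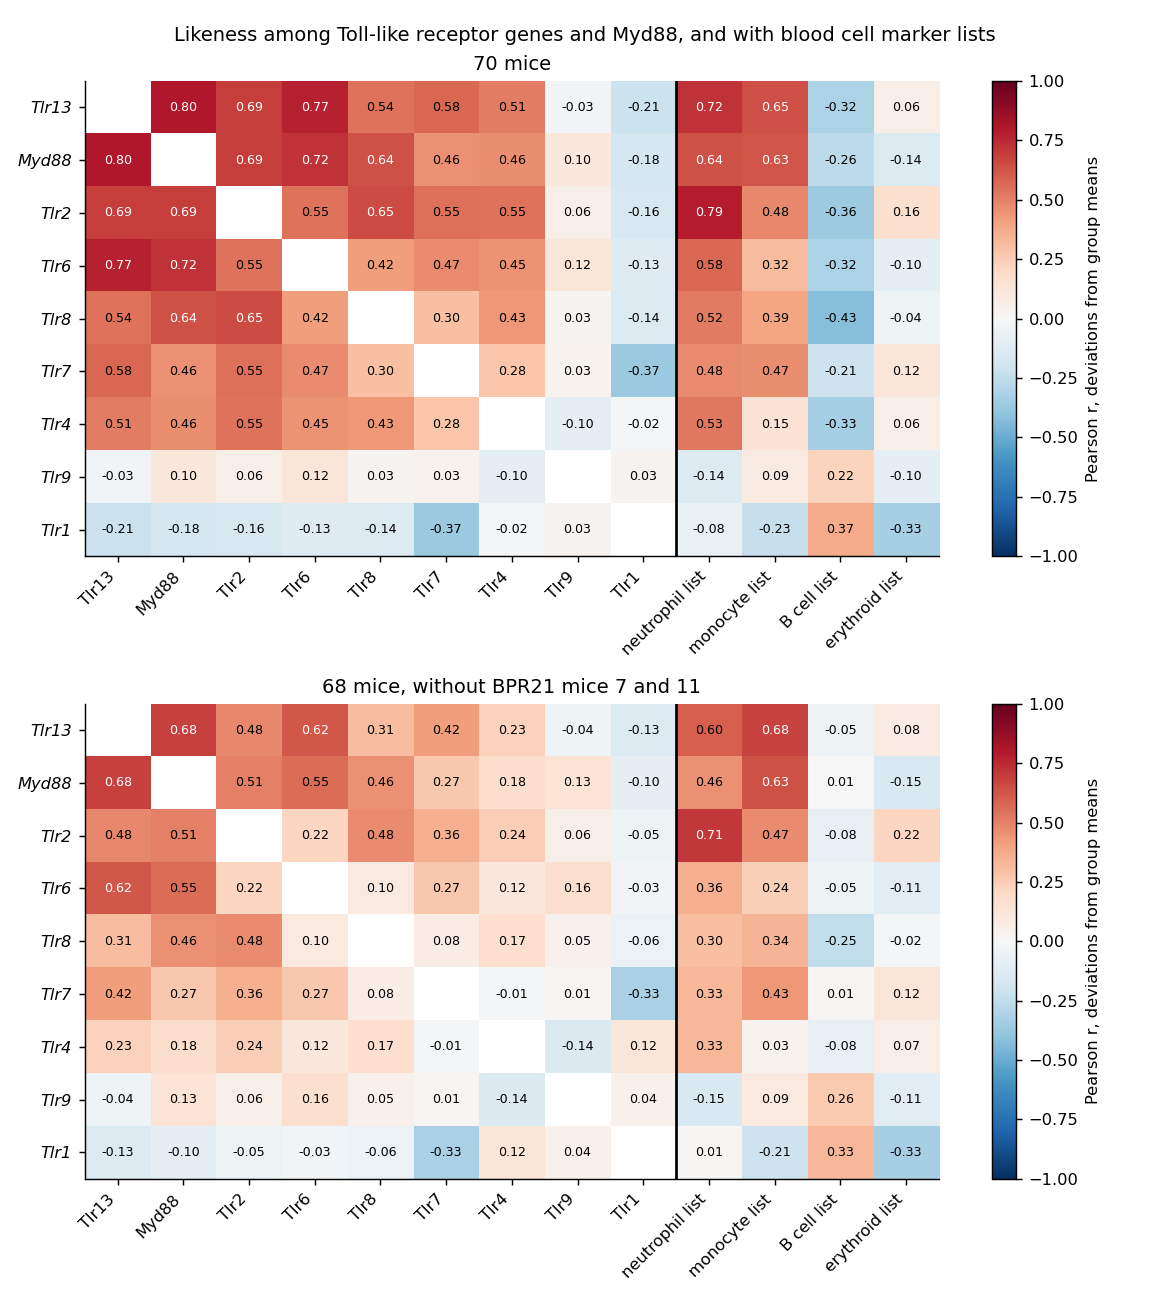
Pearson correlation of deviations from group means over 70 mice, between the 9 genes and with the marker lists of neutrophils, monocytes, B cells and erythroid cells. The upper panel has all 70 mice, the lower leaves out BPR21 mice 7 and 11; Tlr2, Tlr6 and Myd88 have values from 0.69 to 0.80 with Tlr13 in the upper panel.

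Among the genes themselves, Tlr13 and Myd88 were the closest pair (r = 0.80, and 0.68 without BPR21 mice 7 and 11), as a description over 70 mice. Tlr6 followed Tlr13 with r = 0.77 (0.62) and Myd88 with r = 0.72 (0.55), and Tlr2 followed Tlr13 and Myd88 with r = 0.69 each (0.48 and 0.51). Tlr1 and Tlr6, which lie side by side and share sequence, had r = -0.13. Tlr7 and Tlr8, the neighbours on chromosome X, had r = 0.30 (0.08 without those mice), and Tlr1 and Tlr7 had r = -0.37.

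The genes most like each member over the whole table were ranked by the same correlation. Nearest to Myd88 was Spi1, the gene of the transcription factor PU.1, with r = 0.91 (0.87 without BPR21 mice 7 and 11), and Nfam1 was also among the nearest, with 0.88 (0.85). Nearest to Tlr13 was Cxcr2, a chemokine receptor of neutrophils, with 0.90 (0.83), followed by Hp, the gene of haptoglobin, with 0.88 and Tpd52 with 0.87. For Tlr2 it was Mmp8, the neutrophil collagenase, with 0.84 (0.75), then Cd33 and Mcemp1. Tlr6 was nearest to Marcks with 0.80 (0.68), then Tnfsf14 and Rnf149, and Tlr4 to Tspan13 with 0.71 (0.55), then Klra2 and Plaur, the urokinase receptor. Tlr8 was nearest to Tcn2, a carrier of cobalamin, with 0.71 (0.55), then Xdh and Mtus1, and Tlr7 to Rab32, a small GTPase, with 0.64 (0.52), then Txn1 and Slc66a2. The nearest genes of Tlr1 (Ppp4r3a, Wdr3 and Rwdd1, 0.57 to 0.58) and of Tlr9 (Aars2, Csk and Pgghg, all 0.50) had lower values.

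The wider pathway was read from 75 genes, of which 63 were in the normalized table. Between HOCl and control mice, limma called 5 of 63 higher and 0 lower (4.79% of all genes were called higher). Irf7, the interferon regulatory factor downstream of Tlr7 and Tlr9, rose by 1.04 on the log2 scale (SE 0.269, FDR = 0.0196), from a mean of 12.69 to 13.73. Sod2, a mitochondrial superoxide dismutase and NF-kB target, rose by 0.91 (FDR = 0.00832), and Cd36, a scavenger receptor that assists Tlr2 and Tlr6, by 0.85 (FDR = 0.0488, and 0.0886 in edgeR). Tab3, a partner of the kinase Tak1, and Otud5, a deubiquitinase, rose by 0.79 (FDR = 0.00879) and 0.76 (FDR = 0.0100).

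Between E07 and HOCl mice, which share the HOCl mice with the comparison above, 8 of 63 were called lower (7.01% of all genes) and 2 higher (0.876%). Irf7 fell by 1.17 (FDR = 0.000567, limma), Sod2 by 0.98 (FDR = 0.000456), Cd36 by 0.93 (FDR = 0.0063), Otud5 by 0.79 (FDR = 0.000448) and Tab3 by 0.73 (FDR = 0.00362). Cd14, the lipopolysaccharide co-receptor of Tlr4 and a monocyte gene, fell by 0.59 (FDR = 0.0127), Il1rap, a chain of receptors that also use Myd88, by 0.47 (FDR = 0.0235), and Tab2 by 0.39 (FDR = 0.00703). Cd40, a costimulatory receptor of B cells, and Tnf, the inflammatory cytokine, rose by 0.39 each (FDR = 0.00368 and 0.00983), with 12 of 12 E07 mice above the HOCl median for both. Tnf was low on the vst scale, with means of 7.08 in HOCl and 7.47 in E07 mice. In edgeR the rise was 0.59 for Cd40 (FDR = 0.00088) and 1.05 for Tnf (FDR = 0.0449). Scaled to the library total, the 10 called genes kept their direction except Tab2 (0.11). Irf7, Sod2 and Cd36 passed there as lower, where 310 of 10501 genes did. Cd40 and Tnf passed as higher, as did 61.6% of all genes on that scale. Relative to the shift of all genes, Cd40 was at 0.52 and Tnf at 0.79, and Irf7, Sod2 and Cd36 were at -1.12, -1.06 and -0.99.

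Of 9 adaptor and Myddosome genes measured, 0 were called in any of the 5 comparisons, in which 0.0571% to 7.89% of all genes were, and the smallest FDR was 0.0569 for the kinase Irak1 in E07 against HOCl mice (-0.28), followed by 0.0742 for the adaptor Ticam2 in BPR21 against HOCl mice (-0.45). Tlr12, the other receptor measured, had differences from -0.10 to 0.10 in these comparisons. Between HOCl mice and D11, D06 or BPR21 mice, 0 of 63 pathway genes were called. The erythroid markers moved in both comparisons that gave calls. So did platelet markers, with 5 of 9 called higher in HOCl than in control mice and 8 of 9 lower in E07 than in HOCl mice, and neutrophil markers, with 3 of 12 higher and then 3 of 12 lower, while 7 of 10 B cell markers were higher in E07 mice. With the erythroid share as a covariate no pathway gene passed in either, the lowest FDR being 0.762 between HOCl and control and 0.680 between E07 and HOCl mice. Between D06 and HOCl mice the same covariate gave 3 of 63 called higher in D06 mice (2.34% of all genes), namely Cd36 at 0.82 (FDR = 0.0178), Irf7 at 0.52 (FDR = 0.0332) and Tab3 at 0.45 (FDR = 0.0460), where the fit without it had 0.39, 0.08 and 0.14. Between BPR21 and HOCl mice it gave 1 called lower (0.504% of all genes), the chaperone gene Unc93b1, at -0.57 (FDR = 0.0466). The erythroid share itself differed between the groups, so these fits cannot measure the part of these cell types in the changes. That part was not tested.

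**Figure D5:**
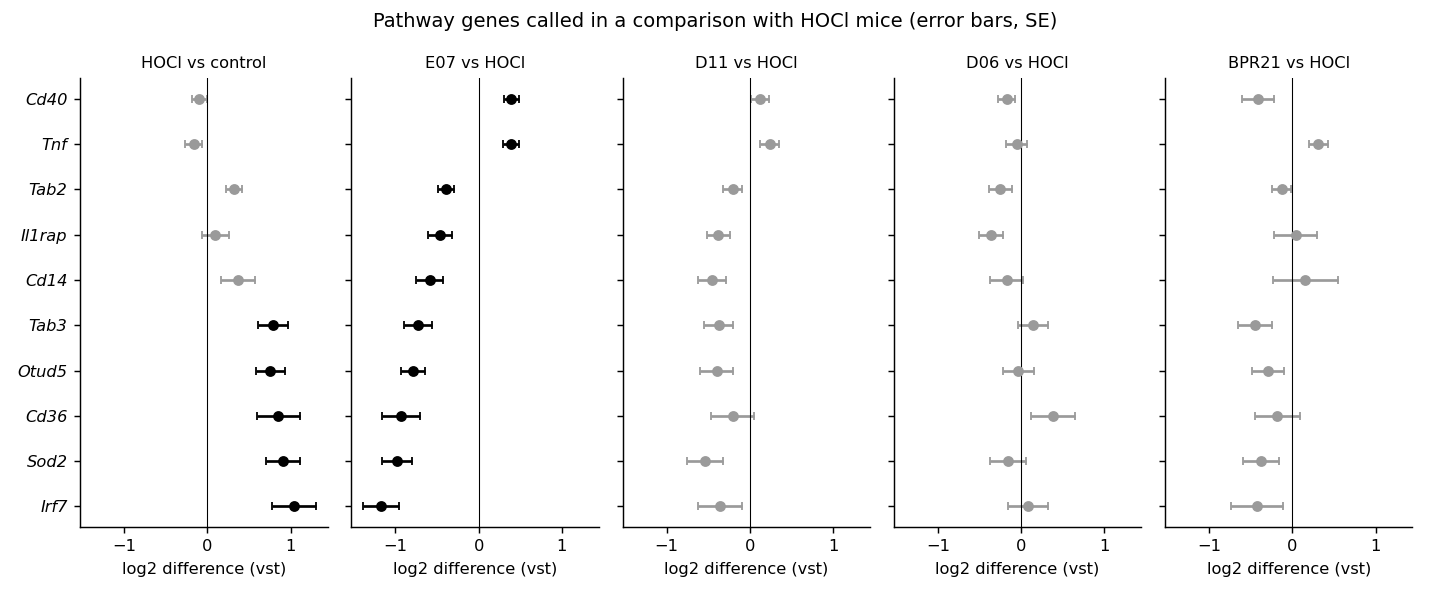
Difference in mean vst value (log2 scale, bars SE) of the 10 pathway genes called in HOCl against control or E07 against HOCl mice, in 5 comparisons; black marks a call. Irf7, Sod2, Cd36, Otud5 and Tab3 are called higher in HOCl mice and lower in E07 mice, and Cd40 and Tnf higher in E07 mice.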

How the data were processed

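Whole blood RNA of 71 mice was sequenced after poly(A) selection and globin depletion with a stranded kit. The authors trimmed reads with cutadapt, aligned them to mm39 with STAR and counted them with featureCounts, and the deposited counts are raw whole-number counts per gene. The deposited log2-like values of 10508 protein-coding genes are DESeq2 variance-stabilized counts, without HOCl mouse 8. Aligner versions are not given in the sources used here.

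Groups were taken from the sample titles. Each pair of groups was fitted with limma 3.58.1 on the vst values, as the study's methods state (call: FDR at most 0.05 and fold change at least 1.3). edgeR 4.0.16 (quasi-likelihood), DESeq2 1.42.0 and limma on log2(CPM + 1) of the library total were alternatives on the counts. On simulated counts with 200 of 12856 genes changed 2-fold between HOCl and control mice, limma recovered 90.5%, edgeR 93.0% and DESeq2 91.5%, with 7, 8 and 19 false calls. The simulation used the same dispersion for every gene, and limma was run there on log2 scaled counts, not vst values. It cannot say how often changes below 2-fold, or changes of noisier genes, would be found. The 9 genes, the pathway lists and the marker lists were chosen with earlier results of these data known. Pathway genes were named where called in 1 of the 5 comparisons with HOCl mice, up to 4 a list by fold change, otherwise the 2 of a list with the smallest FDR, and the nearest genes are the 3 with the highest correlation of group-centred vst values, of which 1 is not reported here. Gene coordinates are those of GENCODE on GRCm39.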

Additional observations from a re-analysis of the deposited data

Results flagged for a closer look

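None of the 9 receptor and adaptor genes differed between treatments under the call rule. Of the pathway genes that were called in E07 against HOCl mice, 8 differed between E07 mice and another treated group in a limma test of that difference (Benjamini-Hochberg FDR over all genes). These genes were picked through the same E07 mice that enter these tests, which favours a difference. Of all genes, 9.76% were called in E07 against D06, 4.57% against D11 and 7.26% against BPR21 mice. Against D06 mice, the E07 mean minus the D06 mean was -0.415 on the log2 scale for Cd14 (FDR = 0.0414), -1.32 for Cd36 (FDR = 8.98e-05), -1.26 for Irf7 (FDR = 3.36e-05), -0.76 for Otud5 (FDR = 0.000452), -0.825 for Sod2 (FDR = 0.000355) and -0.879 for Tab3 (FDR = 0.000157). It was 0.562 for Cd40 (FDR = 0.000295) and 0.443 for Tnf (FDR = 0.00695), both higher in E07 mice. Against D11 mice, the difference was -0.723 for Cd36 (FDR = 0.0331) and -0.81 for Irf7 (FDR = 0.0232). Against BPR21 mice, it was -0.752 for Cd36 (FDR = 0.0307), -0.498 for Otud5 (FDR = 0.038), -0.606 for Sod2 (FDR = 0.0222) and 0.804 for Cd40 (FDR = 0.0173). The erythroid share of counts, with means of 5.72% in E07, 8.50% in D06, 7.36% in D11 and 7.73% in BPR21 mice, moved with these differences. Mean B cell marker values were 10.82 in E07, 10.49 in D11, 10.29 in D06 and 10.13 in BPR21 mice, and mean platelet marker values were 11.73, 12.24, 12.37 and 12.29. The part of these lists was not tested.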

How the results depend on the processing

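Members called stayed at 0 of 9 under edgeR, a fit of 6 groups together, a trended robust fit and the erythroid covariate in all 5 comparisons with HOCl mice. Between HOCl and control mice scaling to the library total gave 4. Between E07 and HOCl mice the count was 1 at the FDR alone (Tlr1), 1 with DESeq2, 1 with edgeR on median-of-ratios factors and 1 without the filter on low counts (each Tlr13), 2 with library-total scaling, and 0 to 1 with each mouse left out, the 1 (Tlr13) without HOCl mouse 11 or E07 mouse 6. Between D06 and HOCl mice DESeq2 gave 1 (Tlr13). Over the other 10 pairs, library-total scaling gave 19 calls in place of 0, an alternative added after the data were seen. The cause was not tested. Relations to marker lists at an adjusted p of at most 0.05 went from 16 to 20 without centring on groups.

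Over all genes, calls between E07 and HOCl mice were 829 by limma, 1291 by edgeR (2388 without its filter) and 1435 by DESeq2; for D11 they were 6, 34 and 168, for D06 14, 50 and 201 (82 in the fit of 6 groups), and for BPR21 67, 78 and 272 (148). With the erythroid covariate calls were 0 for E07 and between HOCl and control mice, 3 for D11, 298 for D06 and 125 for BPR21. Between HOCl and control mice edgeR called 482, and 812 without its filter, beside 521 by limma. With each mouse left out, calls over all genes ranged from 380 to 676 between HOCl and control mice, 747 to 917 for E07, 2 to 14 for D11, 0 to 11 for D06 and 36 to 80 for BPR21.

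Replicate numbers did not pair the mice, since the mean correlation of same-numbered mice was between 0.00999 and 0.0556. With the number as a replicate block 0 of 9 were called in each comparison, and calls over all genes were 85 between HOCl and control mice, 799 for E07, 1 for D11, 0 for D06 and 21 for BPR21. Depth limits Tlr9 most, at a median of 45 reads.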
